A study of Mus musculus with 15 samples.

Results

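The genes described here encode the proteins of the cytoplasmic ribosome. They were taken by name: protein-coding genes of the GENCODE annotation whose symbol is Rpl or Rps followed by a number and an optional letter, together with Rplp0, Rplp1, Rplp2 and Rpsa, without the Rps6k kinases and without pseudogenes. The rule found 80 genes among the 45232 in the deposited table, 31 named for the small 40S subunit and 49 for the large 60S subunit, and all 80 reached the required mean normalized count of 10, as did 16430 genes of the table. RNA came from 15 single whole mouse embryos at embryonic day 7.5, matched by morphology, with embryonic and extraembryonic tissues kept together, on a mixed C57Bl6/CD-1 background. There were 3 wild-type embryos, 6 Apela KO embryos of the NEO-IN strain (numbers 1 to 6) and 6 Apela KO embryos of the NEO-OUT strain (numbers 7 to 12). The knockout embryos came from intercrosses of homozygous null mice, and neither litter nor sex is given in the labels. Apela encodes a secreted peptide that signals through the apelin receptor.

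A ribosome is assembled in the nucleolus from ribosomal RNA and one copy of most of these proteins, with the acidic proteins of the P stalk present in more than one copy. The small subunit reads the mRNA and the large subunit joins the amino acids. In mammals many of these mRNAs begin with a C followed by a run of pyrimidines, the terminal oligopyrimidine tract, through which mTOR and Larp1 control their translation; ribosomal protein genes also have many processed pseudogenes, and several free ribosomal proteins bind Mdm2, the ligase that keeps p53 low.

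The start of transcription is shown for 8 genes because it can hold the sequence by which the family is known; Rps6 and Rpl38 are shown as well-known members, and the other 6 genes passed a test below, some with such a tract and some without. Each line runs 5′ to 3′ on the gene's own strand from 30 bases before to 20 bases from the annotated start (RefSeq, GRCm38.p6), and capitals mark a C followed by at least 4 bases that are C or T and beginning within 5 bases of the start. Rpl13a lies at chr7:45128726-45128775 (minus strand), Rps2 at chr17:24720033-24720082 (plus), Rps6 at chr4:86857348-86857397 (minus), Rpl38 at chr11:114668550-114668599 (plus), Rps16 at chr7:28350659-28350708 (plus), Rpl26 at chr11:68901536-68901585 (plus), Rps7 at chr12:28635934-28635983 (minus) and Rps28 at chr17:33824543-33824592 (minus).
Rpl13a: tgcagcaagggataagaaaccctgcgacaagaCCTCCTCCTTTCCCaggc
Rps2: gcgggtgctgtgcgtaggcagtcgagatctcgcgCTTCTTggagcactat
Rps6: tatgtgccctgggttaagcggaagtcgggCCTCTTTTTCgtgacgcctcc
Rpl38: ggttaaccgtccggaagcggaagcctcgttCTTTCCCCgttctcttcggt
Rps16: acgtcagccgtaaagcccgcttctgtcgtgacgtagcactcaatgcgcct
Rpl26: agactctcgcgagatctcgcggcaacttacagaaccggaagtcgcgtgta
Rps7: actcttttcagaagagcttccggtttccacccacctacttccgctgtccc
Rps28: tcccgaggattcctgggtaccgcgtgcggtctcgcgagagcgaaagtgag

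A start region was matched for 60 of the 80 genes, and 28 of those 60 (46.7%) held such a tract on the transcribed strand at 1 or more of their annotated starts. Of 16268 other protein-coding genes, 21.7% did. TATAAA between 40 and 11 bases before a start was found in 0 of 60 ribosomal protein genes and in 3.1% of the other protein-coding genes. Annotated starts may lie some bases from the start used in these embryos; the RefSeq start was 47 bases from that of the principal GENCODE transcript for Rps2, 45 bases for Rps6 and 69 bases for Rpl26, so the absence of these letters from a window says only that they are not in it. No start region was matched for Rplp1, Rpl29 and Rpl30.

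Reads assigned to genes, as recovered from the normalized counts, summed to 48.8 M to 61.3 M per library, with 20427 to 21059 genes detected. Apela was at 1663 ± 505 normalized counts (SD, n = 3) in wild-type, 11.5 ± 7.24 (n = 6) in NEO-IN and 69.6 ± 21.6 (n = 6) in NEO-OUT embryos. A mean log2 score over Y-linked genes was 6.958 to 7.177 in NEO-IN 1, 2 and 3 and NEO-OUT 9 and 12, and -3.838 to -2.874 in the other 10 libraries, which include all 3 wild-type ones. A mean log2 score over 7 markers of extraembryonic ectoderm and trophoblast ran from -0.55 to -0.39 in wild-type libraries and from -0.43 to 1.07 in knockout libraries, and 1 of those 7 genes, Rhox9, passed the test in NEO-IN against wild-type. Of 7 visceral endoderm markers, 2 (Ttr and Apoa1) were called higher in NEO-OUT against wild-type and 3 (Ttr, Hnf4a and Apoa1) lower in NEO-IN against NEO-OUT, with all 7 fold changes of 1 sign in each. Of 8 primitive streak and mesoderm markers, 0 were called (limma) in NEO-IN against wild-type, with all 8 fold changes below 0, 2 of them (Eomes and Mesp1) at an unadjusted p under 0.05. Of 6 epiblast and 5 maternal decidua markers, 1 each was called lower in NEO-OUT against wild-type, where 3.01% of all genes were. In NEO-IN against NEO-OUT 1 each was called higher (6.74% of all genes), and 1 of the 8 primitive streak and mesoderm markers lower (6.52%). Of 6 primitive blood markers, 0 were called in any comparison. The part of tissue makeup in the comparisons below was tested only for the trophoblast score, as a covariate.

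As a group the ribosomal protein genes were among the most abundant mRNAs of the embryo. Their median mean normalized count was 30148, against 893 for all genes tested; 62 of them were among the 500 most abundant genes and 16 among the 100 most abundant. Together they took between 4.68% (NEO-OUT 8) and 5.29% (NEO-OUT 10) of all normalized counts. The mean share was 5.07% ± 0.173 (SD, n = 3) in wild-type, 4.99% ± 0.147 (n = 6) in NEO-IN and 5.05% ± 0.21 (n = 6) in NEO-OUT embryos, and the 3 groups overlapped. In RNA from whole embryos a lower share of expressing cells and less RNA per cell cannot be told apart. The summed count of 40S genes was 0.703 ± 0.017 of that of 60S genes in wild-type, 0.686 ± 0.011 in NEO-IN and 0.719 ± 0.00742 in NEO-OUT embryos. The 6 NEO-IN ratios (0.675 to 0.702) lay below the 6 NEO-OUT ratios (0.712 to 0.731), and the wild-type ratios (0.684 to 0.716) overlapped both; Rps2 and Rplp1, described below, are among the most abundant genes of their subunits and enter this ratio.

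Per kilobase of merged exons, the highest level belonged to Rplp1, a P-stalk protein that helps recruit elongation factors, at 144260 ± 28096 normalized counts per kilobase (SD, n = 15). Rplp0, the base of the same stalk, followed at 88153 ± 3603, and Rpl4, which lines the peptide exit tunnel, at 76351 ± 2113. Rps15, Rpl8, Rpl36 and Rpl32 were also among the 8 highest, from 73049 down to 48488 per kilobase. The neighbours Rpl4 and Rps15, and Rpl36 and Rpl32, differed by less than the larger of their SDs. The 8 highest depend on the length used: 4 of them stayed among the 8 highest per kilobase of the longest coding transcript, and Rplp1, Rplp0 and Rpl4 were the first 3 with each length.

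The 3 lowest genes were copies with restricted expression in the adult. Rpl3l, a copy of Rpl3 made in heart and skeletal muscle, was at 13.8 ± 14.3 normalized counts per kilobase, Rpl10l, a testis copy of Rpl10, at 31.5 ± 14.4, and Rpl39l, a copy of Rpl39 also known from testis, at 51.3 ± 20.7. Rpl24, a large-subunit protein whose loss of function gives the Belly spot and tail mouse, came next at 542 ± 143 per kilobase, far under the median of 14628. Of the exon bases of Rpl24, 71.5% are overlapped on the same strand by the gene model Gm28037, which was listed at 0 in all 15 libraries. Such overlap was also found for Rpl13a (59.3%), Rps10 (53.6%) and Rpl19 (10.7%), which were at 29628, 10696 and 29612 normalized counts per kilobase. Whether the counting of overlapping genes lowered Rpl24 was not tested. Rpl34, Rpl35a, Rps15a and Rpl30 had 3259 to 4849 per kilobase of merged exons. Merged exons of Rpl35a span 3526 bases against 518 in its principal transcript, and those of Rpl30 span 3020 against 886, so the level per kilobase of these genes rests on the length chosen.

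**Figure D1:**
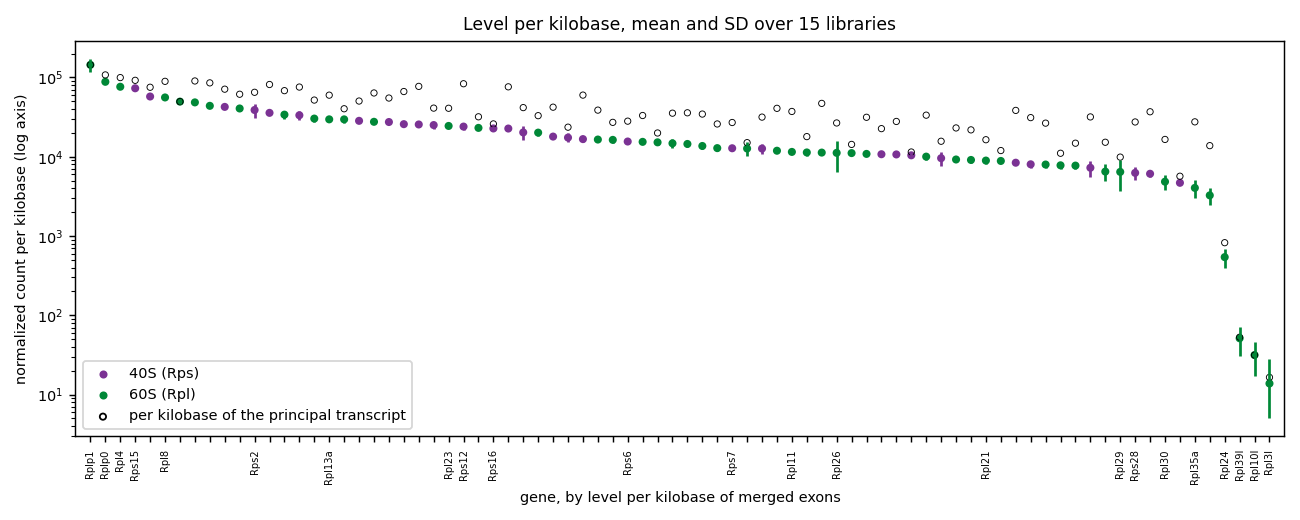
Mean normalized count per kilobase (log axis) of the 80 ribosomal protein genes over 15 libraries, ordered by the level per kilobase of merged exons; filled points are means, bars are SDs (cut at 5 counts per kilobase), purple is 40S and green is 60S, and open circles use the principal transcript's length, with names for called and some other described genes. Rplp1 leads at 144260, and Rpl24, Rpl39l, Rpl10l and Rpl3l stand apart at the low end.

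Most of the genes varied little from embryo to embryo, though more than genes of similar abundance. The SD of log2(normalized count + 1) over the 15 libraries had a median of 0.112. That median was 0.167 for all genes tested and 0.085 for the 2844 genes that averaged 5000 normalized counts or more. The SD was under 0.15 in 53 of 80 genes, against 7471 of all 16430 and 2552 of the 2844. It was at least 0.25 in 17 of 80, against 6005 of all 16430 and 77 of the 2844. The steadiest were Rpl4 with an SD of 0.039, Rps6, the target of the S6 kinases, with 0.042, Rpl11 with 0.047, Rpl23 with 0.055 and Rplp0 with 0.059. The most variable were Rpl3l with 1.963, Rpl10l with 0.658, Rpl26 with 0.649, Rpl39l with 0.590 and Rpl29 with 0.576. Among these 5, Rpl3l, Rpl10l and Rpl39l had few counts, while Rpl26 had at least 7422 and Rpl29 at least 4411 normalized counts in every library.

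The genes also shared a small shift from library to library that did not follow the groups. In NEO-OUT 8, 13 of the 80 genes were above their own mean over the 15 libraries, and in NEO-IN 3 and NEO-OUT 10, 67 were. The median deviation of the 80 genes ran from -0.098 in NEO-OUT 8 to 0.092 in NEO-OUT 10. That of all genes tested was between 0.004 and 0.006 in every library, but the scaling of each library holds it nearly constant. It is therefore no background for the shift, and genes of similar abundance were not looked at in this way. NEO-OUT 8 held the lowest value of 19 genes, NEO-OUT 9 the highest value of 17 and NEO-OUT 10 the highest value of 16. Rpl38, the gene altered in the Tail-short mouse, was at 9475 normalized counts in NEO-OUT 9 and 9287 in NEO-IN 1, against 5061 to 8013 in the other 13 libraries. Rps21, Rpl39 and Rpl24 were likewise highest in NEO-IN 1 and NEO-OUT 9, and Rps26 was lowest in both, at 37203 and 37248 against 48326 to 61656 elsewhere. Rpl38, Rps21 and Rps26 were chosen for mention after their values were seen. The score of primitive streak and mesoderm markers was -0.433 in NEO-IN 1 and -0.585 in NEO-OUT 9, but also -0.565 in NEO-IN 6, where Rpl38 was at 5451. This score ran from -0.246 to 0.329 in the other 12 libraries. The score of primitive blood markers was -0.405 in NEO-IN 1, 1.197 in NEO-OUT 9 and -1.175 in NEO-OUT 10. That of maternal decidua markers was 1.029 in NEO-IN 6 and 0.469 in NEO-OUT 8. The part of tissue makeup in these values was not tested.

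**Figure D2:**
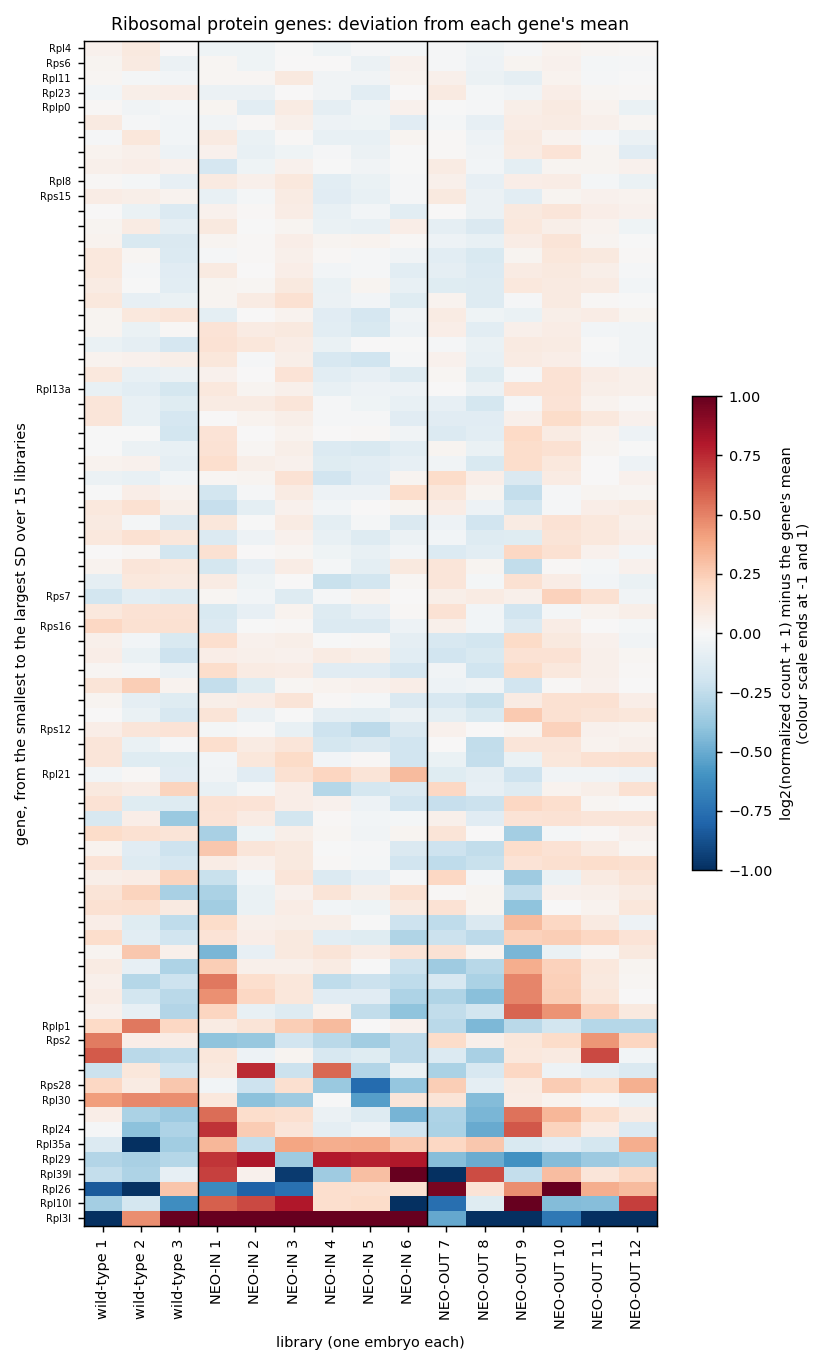
Deviation of log2(normalized count + 1) from each gene's own mean in the 15 libraries (columns, one embryo each, groups separated by lines) for the 80 genes, from the smallest SD at the top to the largest at the bottom; colours end at -1 and 1, with names for called and some other described genes. The pale upper rows are genes with SDs from 0.039, and the saturated rows at the bottom include Rpl29, high in 5 NEO-IN libraries, and Rpl3l, low in NEO-OUT.

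Few ribosomal protein genes passed the test in any comparison, and they moved in both directions. In NEO-IN against wild-type limma called 6 of 80, where 2.98% of all genes tested were called: 2 were higher (1.53% of all genes) and 4 lower (1.44%). In NEO-OUT against wild-type 6 of 80 were called, where 6.35% of all genes were: 3 higher (3.34%) and 3 lower (3.01%). Between the strains 8 of 80 were called, where 13.3% of all genes were: 4 higher in NEO-IN (6.74%) and 4 lower (6.52%). With the mean of both strain effects against wild-type 5 of 80 were called, where 2.83% of all genes were: 2 higher (1.61%) and 3 lower (1.22%). As shares of the 80 genes, 7.5%, 7.5% and 6.25% were called in the 3 comparisons with wild-type, above the background for NEO-IN and for the mean and near it for NEO-OUT, while between the strains the share lay under the background. The comparisons with wild-type share the same 3 embryos. At an unadjusted p under 0.05 (limma) the counts were 22, 16, 11 and 20 of 80 in the same order, where 18.0%, 22.8%, 27.8% and 18.5% of all genes had such a p.

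Most of the fold changes were near 0, though fewer than among genes of similar abundance. The median log2 fold change of the 80 was 0.011, 0.012, -0.023 and 0.015 in the same order, against 0.001, -0.002, 0 and -0.004 for all genes, and 63, 68, 71 and 68 of the 80 (78.8%, 85.0%, 88.8% and 85.0%) were within 0.2 of 0. That share was 69.6%, 66.0%, 68.4% and 71.9% over all genes, but 95.1%, 91.7%, 93.2% and 95.8% over genes averaging 5000 normalized counts or more, as 76 of the 80 did. In NEO-IN against wild-type 14 genes did not overlap between the groups, where 10.8% of all genes did not: 2 were higher (5.41% of all genes) and 12 lower (5.39%). In NEO-OUT against wild-type 6 did not overlap, where 13.7% of all genes did not: 3 were higher (6.98%) and 3 lower (6.74%). Between the strains 4 did not overlap, where 5.82% of all genes did not: 2 were higher in NEO-IN (2.86%) and 2 lower (2.96%). In all 12 knockout embryos against wild-type 4 did not overlap, where 3.39% of all genes did not: Rpl13a and Rps9 were higher (1.69%), and Rps16 and Rpl30 lower (1.7%); Rps9, a protein of the 40S body, was not called.

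Some calls were lost in models with 1 term more, mostly at fold changes of similar size. With the trophoblast score as a covariate, Rpl30 alone stayed called among the 6 genes of NEO-IN against wild-type; log2 fold changes of the others were then 0.73 for Rpl29, 1.03 for Rpl35a, -0.55 for Rps2, -0.30 for Rps16 and -0.31 for Rps12. Rplp1 and Rpl30 stayed called among the 6 of NEO-OUT against wild-type, and Rpl30 among the 5 of the mean; between the strains Rpl26 and Rpl21 were lost. With runs of 3 consecutively numbered libraries as a random block, which left the fold changes of the named genes as they were, Rpl35a and Rps12 were lost in NEO-IN, Rpl26, Rpl30, Rps16 and Rpl13a in NEO-OUT, Rpl30, Rpl35a and Rps7 for the mean, and Rpl21 between the strains.

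**Figure D3:**
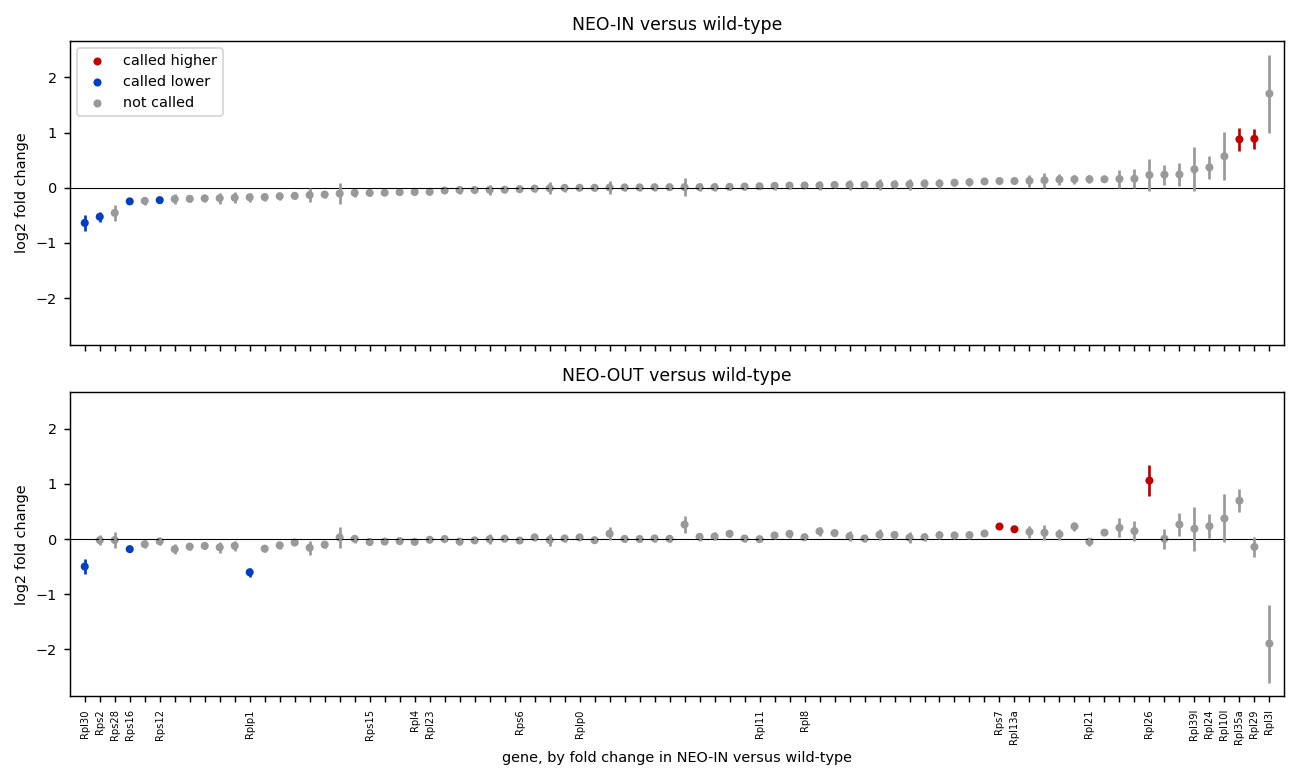
Log2 fold change with its standard error (limma) of the 80 genes in NEO-IN against wild-type (top) and NEO-OUT against wild-type (bottom), in the order of the top panel; red and blue mark adjusted p under 0.05, with names for called and some other described genes. Most points lie near 0, and Rpl30 is low in both panels, whereas Rps2, Rpl29, Rpl26 and Rplp1 are set apart in 1 panel each; both panels share the 3 wild-type embryos.

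Of the small-subunit genes, Rps2, whose protein sits near the mRNA entry channel, was lower in NEO-IN embryos than in both other groups. Its normalized counts were 99859, 72894 and 73356 in wild-type, from 52894 to 60983 with a median of 56283 in NEO-IN, and from 72313 to 94827 with a median of 79339 in NEO-OUT. Every NEO-IN embryo was below every other embryo. The log2 fold change was -0.53 ± 0.091 (SE) in NEO-IN against wild-type (limma adjusted p = 0.00362) and -0.51 ± 0.074 against NEO-OUT (adjusted p = 0.000297); in NEO-OUT against wild-type it was -0.02. With the trophoblast score as a covariate the value for NEO-IN against wild-type was -0.55 (adjusted p = 0.073).

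Rps16, a protein of the 40S head, was lower in both knockout strains. Wild-type embryos had 33076, 31946 and 31950 normalized counts, NEO-IN embryos 26063 to 28953 with a median of 26926, and NEO-OUT embryos 26096 to 30190 with a median of 28569. All 12 knockout embryos were below the 3 wild-type embryos. This was a log2 fold change of -0.25 ± 0.048 in NEO-IN (limma adjusted p = 0.00867), -0.18 ± 0.048 in NEO-OUT (adjusted p = 0.0327) and -0.21 ± 0.044 for the mean of both (adjusted p = 0.0151). Without wild-type 1 the NEO-IN call was lost (adjusted p = 0.0584). The NEO-OUT call was lost without wild-type 1, 2 or 3 (0.138, 0.0897 and 0.0895), NEO-OUT 8 (0.0527) or NEO-OUT 12 (0.0525), and the call of the mean without wild-type 1, 2 or 3 (0.101, 0.0656 and 0.0581).

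Rps12, a protein of the 40S beak, was lower in NEO-IN embryos, at 40362 to 48419 with a median of 44986 normalized counts. Wild-type embryos had 50637, 52612 and 53253, and NEO-OUT embryos 48659 to 56992 with a median of 49908. The NEO-IN embryos lay under both other groups. The difference from NEO-OUT was -0.18 ± 0.048 on the log2 scale (limma adjusted p = 0.0174) and that from wild-type -0.22 ± 0.059 (adjusted p = 0.0476). The call against wild-type was lost without any 1 of 11 libraries, namely wild-type 1, 2 and 3, NEO-IN 3, 4, 5 and 6 and NEO-OUT 7, 8, 11 and 12, with adjusted p from 0.0542 to 0.178.

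Rps28, which lies near the mRNA exit site, was lower in NEO-IN embryos when set against NEO-OUT. It was at 6181 to 11814 normalized counts with a median of 8645 in NEO-IN, 9913 to 13492 with a median of 12268 in NEO-OUT, and 12179, 11191 and 12735 in wild-type. The strains overlapped, with 4 of 6 NEO-IN embryos under all NEO-OUT embryos. The log2 difference was -0.44 ± 0.116 between the strains (limma adjusted p = 0.0186) and -0.46 ± 0.142 against wild-type (adjusted p = 0.0968).

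Rps7, one of the ribosomal proteins that bind Mdm2, was higher in NEO-OUT embryos. It was at 22602, 23943 and 23471 normalized counts in wild-type, 25086 to 30093 with a median of 26948 in NEO-OUT and 23520 to 26388 with a median of 25651 in NEO-IN. All NEO-OUT embryos and 5 of 6 NEO-IN embryos were above the wild-type range. Rps7 differed from wild-type by 0.23 ± 0.0504 on the log2 scale in NEO-OUT (limma adjusted p = 0.0132), 0.12 ± 0.050 in NEO-IN (adjusted p = 0.209) and 0.18 ± 0.046 for the mean of both (adjusted p = 0.049). Without wild-type 1 the NEO-OUT call was lost (adjusted p = 0.0766); the call of the mean was lost without any 1 of 13 libraries, which leaves it only without NEO-IN 3 or NEO-OUT 12, with adjusted p from 0.0503 to 0.224.

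In the P stalk, Rplp1 was lower in NEO-OUT embryos while its partners were not called. Rplp1 was at 81025, 101763 and 81725 normalized counts in wild-type, 70857 to 87978 with a median of 76200 in NEO-IN and 51813 to 62132 with a median of 58345 in NEO-OUT. Every NEO-OUT embryo was below every other embryo, while NEO-IN and wild-type overlapped. On the log2 scale the change was -0.60 ± 0.078 in NEO-OUT against wild-type (limma adjusted p = 0.000234), -0.17 ± 0.078 in NEO-IN against wild-type (adjusted p = 0.251) and 0.43 ± 0.063 in NEO-IN against NEO-OUT (adjusted p = 0.000337). The NEO-OUT call held under every alternative run, with log2 values from -0.66 to -0.49. The mean of both strains against wild-type was -0.39 ± 0.071 (adjusted p = 0.00673), and that call was lost without wild-type 2 (-0.28, adjusted p = 0.0787). Rplp0 changed by 0.03 ± 0.047 and Rplp2, the other acidic protein, by 0.01 ± 0.065 in NEO-OUT against wild-type, with adjusted p of 0.74 and 0.931.

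Of the large-subunit genes, Rpl30, which in yeast binds its own transcript, was lower in both strains. Wild-type embryos had 19094, 19980 and 19747 normalized counts, NEO-IN embryos 9751 to 15561 with a median of 12710, and NEO-OUT embryos 10621 to 15625 with a median of 14463. All 12 knockout embryos were below the wild-type range. The log2 fold change was -0.64 ± 0.138 in NEO-IN (limma adjusted p = 0.0172), -0.50 ± 0.138 in NEO-OUT (adjusted p = 0.0396) and -0.57 ± 0.126 for the mean of both (adjusted p = 0.0227). Each call was lost when any wild-type embryo was left out: without wild-type 1, 2 and 3 the adjusted p was 0.06, 0.0787 and 0.072 in NEO-IN, 0.106, 0.127 and 0.122 in NEO-OUT and 0.0915, 0.109 and 0.0996 for the mean. The NEO-OUT call was also lost without NEO-OUT 8, 10, 11 or 12 (0.0593, 0.0532, 0.0568 and 0.0605).

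Rpl29, a large-subunit protein that mice can live without, was higher in 5 of 6 NEO-IN embryos. Those 5 had 11018 to 11719 normalized counts, whereas NEO-IN 3 had 5236, wild-type embryos 5480, 5354 and 5516, and NEO-OUT embryos 4411 to 5383 with a median of 4986. No library lay between 5516 and 11018. The log2 fold change was 0.89 ± 0.183 in NEO-IN against wild-type (limma adjusted p = 0.0128) and 1.03 ± 0.15 against NEO-OUT (adjusted p = 0.000295). The call against wild-type was lost without wild-type 1, 2 or 3 (adjusted p = 0.0551, 0.0657 and 0.0548), and the call between the strains with none of the 15 left out.

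Rpl26, a protein at the exit tunnel that in human cells also binds the p53 mRNA, showed stepped levels too. It was at 8258, 7422 and 17896 normalized counts in wild-type. In NEO-IN 1, 2 and 3 it was at 9480, 8447 and 8785, and in NEO-IN 4, 5 and 6 at 16573, 16511 and 16406. NEO-OUT embryos had 28457, 16270, 20346, 30271, 18978 and 18382. Thus 5 libraries were at 7422 to 9480, 8 at 16270 to 20346, and NEO-OUT 7 and 10 at 28457 and 30271, so that wild-type and NEO-IN were each split. The log2 fold change was 1.06 ± 0.288 in NEO-OUT against wild-type (limma adjusted p = 0.0354) and -0.83 ± 0.235 in NEO-IN against NEO-OUT (adjusted p = 0.0268). The first call was lost without wild-type 1 or 2 or NEO-OUT 7 or 10 (adjusted p = 0.162, 0.187, 0.0542 and 0.0676) and with edgeR (0.0624) and DESeq2 (0.0508); the second was lost without NEO-IN 1, 2 or 3 or NEO-OUT 7 or 10 (0.0562, 0.0621, 0.0603, 0.0554 and 0.0623).

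Rpl35a, a protein altered in some patients with Diamond-Blackfan anemia, was higher in NEO-IN embryos. It was at 12479, 5148 and 10774 normalized counts in wild-type, 11612 to 18035 with a median of 17415 in NEO-IN and 12117 to 17597 with a median of 14254 in NEO-OUT. Wild-type 2 was far under the other 14 libraries, and NEO-IN and wild-type overlapped. Rpl35a differed from wild-type by 0.88 ± 0.212 on the log2 scale in NEO-IN (limma adjusted p = 0.0318), 0.70 ± 0.212 in NEO-OUT (adjusted p = 0.0582) and 0.79 ± 0.193 for the mean of both (adjusted p = 0.037). Without wild-type 2 the NEO-IN value fell to 0.49 (adjusted p = 0.178) and that of the mean to 0.40 (0.257). The NEO-IN call was also lost without NEO-IN 1, 3, 4 or 5 (0.0562, 0.0521, 0.0534 and 0.0544), and the call of the mean without wild-type 3, NEO-IN 5 or NEO-OUT 8 (0.0597, 0.0509 and 0.0519).

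Rpl13a and Rpl21 moved least among the called genes of the large subunit. Rpl13a, which in human cells also acts outside the ribosome in the interferon response, was at 59318, 58014 and 55195 normalized counts in wild-type and 60039 to 69219 with a median of 64991 in NEO-OUT; the groups did not overlap. Its log2 fold change was 0.18 ± 0.051 (limma adjusted p = 0.0439), and the call was lost without any 1 of 10 libraries, namely wild-type 1, 2 and 3, NEO-OUT 9, 10, 11 and 12 and NEO-IN 2, 3 and 5 (adjusted p from 0.0505 to 0.192). Rpl21 was at 28048 to 37721 with a median of 33390 in NEO-IN, 26286 to 29603 with a median of 28808 in NEO-OUT and 29749, 30530 and 27984 in wild-type, with 4 of 6 NEO-IN embryos above both other groups. The strains differed by 0.20 ± 0.059 (adjusted p = 0.0321), a call lost without NEO-IN 3, 4, 5 or 6 or NEO-OUT 7, 8 or 9 (adjusted p from 0.0533 to 0.0687).

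**Figure D4:**
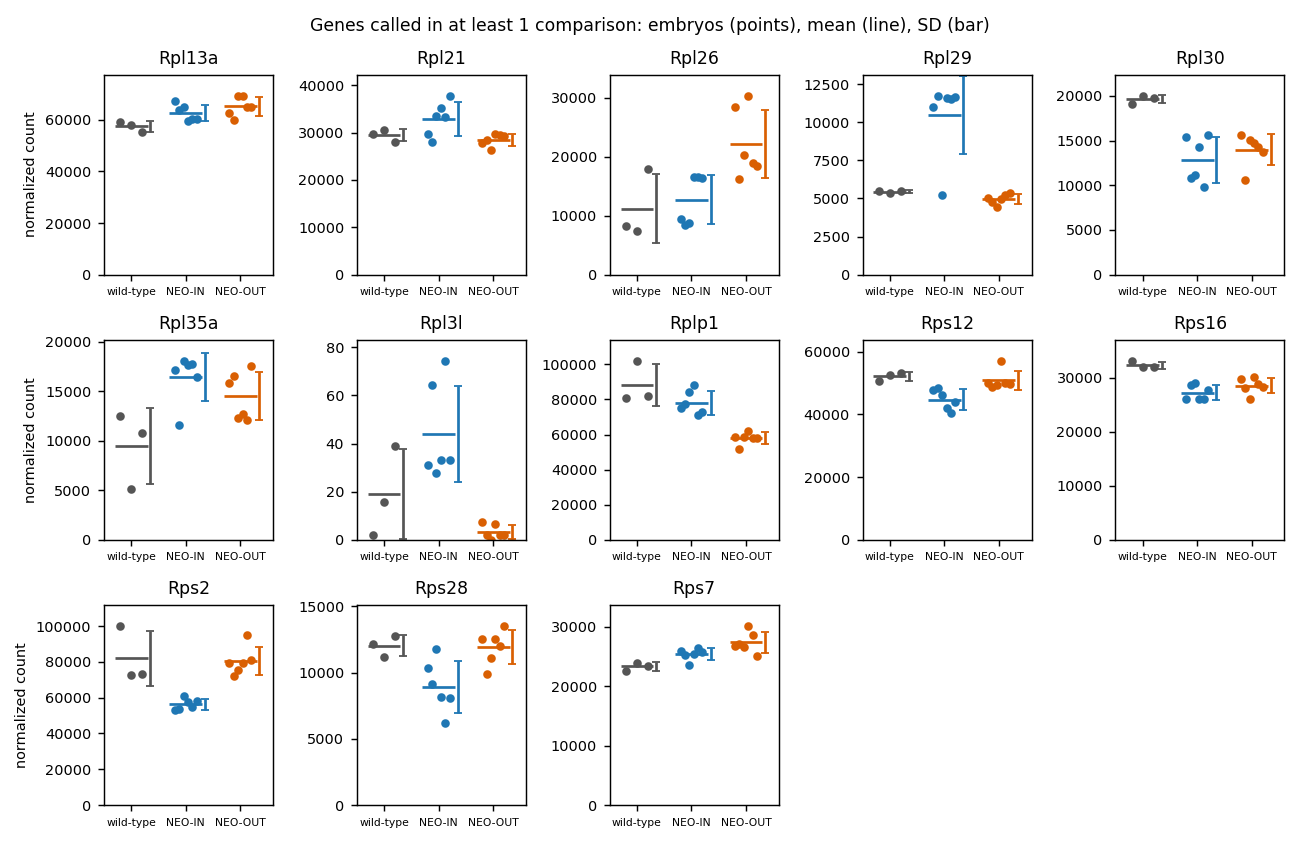
Normalized counts of the 13 genes called in at least 1 of the 4 comparisons, with each embryo as a point, the group mean as a line and the SD as a bar (3 wild-type, 6 NEO-IN, 6 NEO-OUT embryos). Rps16 and Rpl30 are lower in all 12 knockout embryos than in the 3 wild-type embryos, Rps2 is lowest in NEO-IN and Rplp1 lowest in NEO-OUT.

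Of the copies with restricted expression, Rpl3l was called between the strains. It was at 2.1, 15.8 and 39.1 normalized counts in wild-type, 27.8 to 74.2 in NEO-IN and 0 to 7.5 in NEO-OUT, so that every NEO-IN embryo was above every NEO-OUT embryo. The log2 difference was 3.60 ± 0.578 (limma adjusted p = 0.000669) on log2(normalized count + 1), at levels that are low beside the rest of the family. Rpl3l lies 5891 bases from Rps2 on chromosome 17, on the same strand, and the pair differed between the strains in opposite directions. Rpl10l, Rpl39l and Rps27l, a copy of Rps27 that p53 induces in human cells, were not called in any comparison. Rps27l was at 7152 ± 812 normalized counts in wild-type, 7245 ± 1097 in NEO-IN and 8744 ± 1995 in NEO-OUT, with the 4 highest NEO-OUT embryos at 8204 to 11502 and adjusted p = 0.336 against wild-type.

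Rpl5 and Rpl11, which with the 5S RNA form the particle that binds Mdm2, were not called in any comparison. Rpl5 had 28997 ± 1594 normalized counts in wild-type, 30639 ± 2004 in NEO-IN and 30632 ± 3344 in NEO-OUT embryos. Rpl11 had 30782 ± 571, 31392 ± 1082 and 30798 ± 1142. Rps27a, made as a fusion with ubiquitin, had 23226 ± 3154, 25488 ± 2567 and 25428 ± 4845, and it was not called either. Among 16 p53 regulators and targets, 6 were higher in NEO-OUT than in wild-type (3.34% of all genes were) and 0 lower (3.01%), among them Eda2r (log2 fold change 1.32), Phlda3 (0.66) and Ccng1 (0.60), with limma adjusted p of 0.000223, 0.00267 and 0.00146. In NEO-IN 1 was higher, Zmat3 (0.22, adjusted p = 0.0431), and 6 of the 16 were lower in NEO-IN when set against NEO-OUT (6.52% of all genes were).

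On the X chromosome, Rpl10, Rpl36a, Rpl39 and Rps4x were not called in any comparison. Their levels in the 5 libraries with a high Y-linked score overlapped those in the other 10. Rps4x ran from 64210 to 73519 and from 66531 to 76348, and Rpl36a from 18423 to 20116 and from 17491 to 21398. Rpl10 ran from 29141 to 37505 and from 25280 to 34812, and Rpl39 from 9627 to 13353 and from 6588 to 11423. For Rpl39 the 3 wild-type embryos, at 7067 to 9536, lay below all 5 libraries with a high score. Rpl13 shares chromosome 8 with Apela, at 58.1 megabases from it, and was not called. It was at 20859 ± 1366 normalized counts in wild-type, 20425 ± 2333 in NEO-IN and 20895 ± 1871 in NEO-OUT. Rps18, a protein of the 40S head, was not called but stood at 26686 in wild-type 1 and 27589 in NEO-OUT 11, against 13920 to 18901 in the other 13 libraries; it was chosen for mention after its values were seen. Rps2 had its highest 2 values, 99859 and 94827, in the same libraries.

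Reads from these genes can be hard to place. Of the windows of 50 bases in the principal transcript, many occurred also in transcripts of other genes: 40 of the 80 genes shared at least 50% of their windows, 18 at least 80%, and 3, Rpl39l and Rpl3l among them, none. The share was 71.3% for Rps2, 66.8% for Rpl29, 61.0% for Rpl26, 79.2% for Rpl30 and 83.6% for Rps12. Values of these genes are uncertain to the extent that reads were split or dropped. Windows were matched on both strands, so transcripts that run opposite over the same bases count too. Rpl30 shared most windows with D730044K07Rik (49.5%), which does not overlap its exons on the same strand. As the libraries were stranded, these shares and counts may overstate how many reads are hard to place. Of 258 annotated pseudogenes named after 56 of the genes, 109 passed the filter, and they held 0.0469% to 0.118% of all normalized counts.

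Among the pseudogenes, Rps2-ps13 on the X chromosome stood out between the strains. It was at 8.3, 7548 and 6892 normalized counts in wild-type, at 7213 to 8178 in 4 NEO-IN embryos, at 15836 and 14973 in NEO-IN 2 and 5, and at 9.8 to 22.5 in NEO-OUT embryos. The 8 libraries at 6892 or more were, with NEO-OUT 8, the 9 lowest of the 15 for Rps2. The strains differed by 9.40 ± 1.11 on the log2 scale (limma adjusted p = 4.26e-05). Adding its counts to those of Rps2 gave 60868 to 69713 in NEO-IN and 72326 to 94837 in NEO-OUT, and 99867, 80442 and 80248 in wild-type. In this sum NEO-IN stayed under both other groups. However, Rps2 shared windows with 71 other genes, most with Rps2-ps10 (63.9%), and the sum takes in only Rps2-ps13. Rps2-ps10 was at 510, 639, 650 and 658 in NEO-IN 1, 3, 4 and 6. It was at 0 and 7.8 in NEO-IN 2 and 5 and at 2.9 to 13.7 in wild-type and NEO-OUT embryos. It was not called in NEO-IN against wild-type or NEO-OUT (limma adjusted p = 0.206 and 0.0873). Reads that were dropped cannot be added back, so the part of misplaced reads in the Rps2 values was not tested. The gene model Gm10073, whose transcript shares windows with Rplp1, was at 542 ± 55.5 in wild-type, 374 ± 80.6 in NEO-IN and 230 ± 38.9 in NEO-OUT, the same order of groups as Rplp1. Rps26-ps1 was at 5653, 424 and 5818 in wild-type and at 274 to 488 in the 12 knockout embryos.

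**Figure D5:**
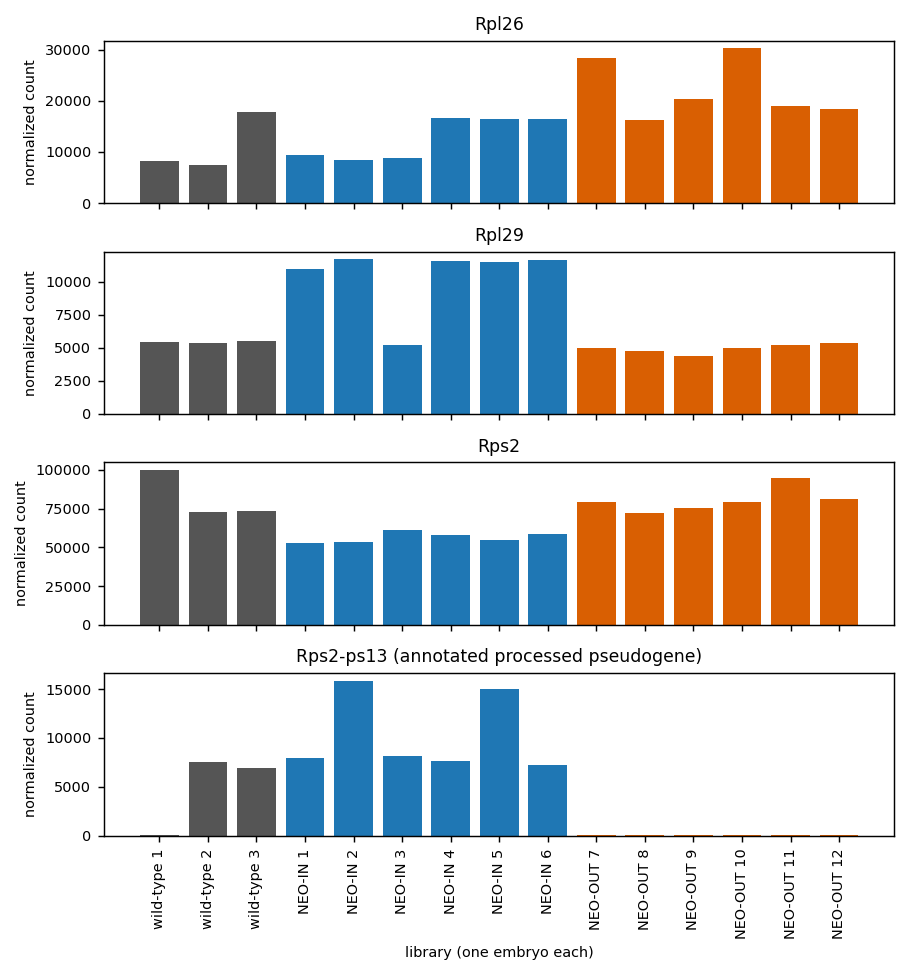
Normalized counts of Rpl26, Rpl29, Rps2 and the annotated processed pseudogene Rps2-ps13 in each of the 15 libraries (grey wild-type, blue NEO-IN, orange NEO-OUT). Rpl29 is at 11018 to 11719 in 5 NEO-IN libraries and at 4411 to 5516 elsewhere, Rpl26 stands at several separate levels, and Rps2-ps13 is near 0 in wild-type 1 and all NEO-OUT libraries.

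Counts for other genes of the translation machinery can be read against the shares of all genes called, which were 2.98% in NEO-IN and 6.35% in NEO-OUT against wild-type and 13.3% between the strains. Of 8 ribosomal protein genes whose names fall outside the rule, among them Rps3a1 and Fau, Rps27rt was lower in NEO-IN than in wild-type (log2 fold change -0.59, limma adjusted p = 0.035), Rpl36al was lower in NEO-IN when set against NEO-OUT (-0.16, adjusted p = 0.0496), and 0 of 8 passed in the other comparisons. Of 15 translation factors and related genes with oligopyrimidine mRNAs, such as Eef1a1 and Eef2, 0 passed in any of the 4 comparisons. Of 47 factors of ribosome assembly, Rrs1, needed for the 5S particle, was higher in NEO-IN than in wild-type (0.39, adjusted p = 0.00356) and than in NEO-OUT (0.26, adjusted p = 0.00404), and Surf6 was higher in NEO-OUT than in wild-type (0.17, adjusted p = 0.0336). Of 14 genes of RNA polymerase I and its factors, 0 passed in either strain against wild-type (limma), while between the strains Taf1d was higher in NEO-IN (0.19) and Polr1d (-0.19) and Znrd1 (-0.12) were lower. Of 18 regulators of growth and of ribosomal protein mRNAs, Mtor, the kinase that controls the translation of oligopyrimidine mRNAs, was lower in NEO-IN than in wild-type (-0.33, adjusted p = 0.00304) and than in NEO-OUT (-0.27, adjusted p = 0.000744), and Mxd4, a repressor of the Myc network, was the other gene lower in NEO-IN when set against NEO-OUT (-0.34, adjusted p = 0.0136). Of 76 mitochondrial ribosomal proteins tested, 2 were higher and 2 lower in NEO-IN, and 2 higher and 4 lower in NEO-OUT, each against wild-type. Between the strains 4 of the 76 were higher and 7 lower in NEO-IN, and 60 of the 76 fold changes were below 0.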

How the data were processed

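PolyA RNA of single embryos was made into stranded libraries with the TruSeq Stranded mRNA kit, per the labels' protocols. Per the submitters' processing notes, kallisto, DESeq2, featureCounts, Picard and STAR were used with mm10, with no versions given. The authors deposited signal values under the name of DESeq2 normalized counts; from the values themselves they are reads per gene scaled by 1 factor for each library, and they are called normalized counts here. Dividing by each library's step gave whole reads for 100.0% of values (within 0.01), with size factors from 0.85 to 1.074; 1 stray letter in a cell was removed. Of the counts from 1 to 20, 76.9% to 79.1% were even, so independent fragments may be fewer than reads. Symbols (98.57% of identifiers), coordinates and lengths came from GENCODE for GRCm38 (mm10); start sequences came from RefSeq.

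limma-trend (limma 3.58.1, R 4.3.3) was fitted to log2(normalized count + 1) of 16430 genes with a mean of at least 10, over 15 libraries and 3 groups, with Benjamini-Hochberg adjusted p under 0.05 over all genes as a call. This scale understates changes of low genes. Recovered reads were tested with edgeR 4.0.16, which called 525, 1059, 2157 and 488 genes in NEO-IN and NEO-OUT against wild-type, NEO-IN against NEO-OUT and the mean of both strains against wild-type, and with DESeq2 1.42.0. The fit was also run on counts simulated independently for each library, without litters or batches. The outcome is not reported here. Embryos are replicates, but litters are unknown, so p-values cover only the spread between these embryos, and 3 wild-type embryos limit each comparison with wild-type.

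Named members were those called (up to 12 per comparison, by fold change; 6 by p where fewer were called), the 8 highest and lowest per kilobase, the 5 most and least variable, X-linked members, those on Apela's chromosome, restricted copies, and the P-stalk, 5S and ubiquitin-fusion genes; of other lists, up to 4 called genes. The members and lists were chosen with earlier results of these data known. Windows of 50 bases were compared, on both strands, with the annotated transcripts of all other genes. Plots were made in Python 3.11.15 (matplotlib 3.10.9). Results of some members are not reported here.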

Additional observations from a re-analysis of the deposited data

Results flagged for a closer look

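The 13 genes called above and their family's share of counts were looked at in each knockout strain, 28 sets of 6 embryos in all. In 3 sets 1 embryo lay far from the other 5, and chance gives about 1 such set in 20. Rpl29 was at 5236 normalized counts in NEO-IN 3, the lowest of its group. Rpl35a was at 11612 in NEO-IN 2, the lowest of its group. Rps12 was at 56992 in NEO-OUT 10, the highest of its group.

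The effects of the 2 strains differed, by the limma test of NEO-IN against NEO-OUT, for 8 genes. The log2 difference was 3.60 for Rpl3l, 1.03 for Rpl29, 0.43 for Rplp1 and 0.20 for Rpl21, higher in NEO-IN. It was -0.83 for Rpl26, -0.51 for Rps2, -0.44 for Rps28 and -0.18 for Rps12, lower in NEO-IN. Of these, Rpl3l, Rpl29, Rplp1, Rps2, Rps28 and Rps12 kept their call when any 1 library was left out.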

How the results depend on the processing

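No called gene changed direction under an alternative. The difference in the family's share of counts from wild-type, which has no test, changed sign: leaving out 1 library gave -0.168 to 0.00396 percentage points in NEO-IN (from -0.0776) and -0.105 to 0.0671 in NEO-OUT (from -0.0145); between the strains it was -0.137 to -0.0147. With the trophoblast score as a covariate 1 ribosomal protein gene was called in NEO-IN against wild-type, 2 in NEO-OUT and 1 for the mean of both strains, in place of 6, 6 and 5; over all genes 83, 387 and 68 were then called, and 1417 between the strains. With runs of 3 consecutively numbered libraries as a random block, 2 were called in NEO-OUT and 2 for the mean; without the filter 2 and 3; with Y-linked expression in the model 3 in NEO-OUT. With the 12 knockouts as 1 group, an alternative chosen after seeing the data, 2 were called for the mean. Leaving out 1 library at a time gave 2 to 7 calls in NEO-IN against wild-type, 3 to 6 in NEO-OUT against wild-type, 6 to 9 between the strains and 0 to 6 for the mean, where 0 were called without wild-type 2 and 1 without wild-type 3. Of the 6, 6 and 5 calls against wild-type, leaving out wild-type 1, 2 or 3 ended 12, 13 and 10 in all. Of the 8 highest genes per kilobase, 4 stayed with the longest coding transcript. Over all genes, leaving out 1 wild-type embryo gave 206 to 239 calls in NEO-IN, 383 to 500 in NEO-OUT and 153 to 200 for the mean. The random block gave 237, 531 and 188 calls and 1432 between the strains, Y-linked expression in the model 300 for the mean, array weights 800, 1613 and 865, and 1 knockout group 175. Over all genes, DESeq2 called 929, 1634 and 899 genes in NEO-IN, NEO-OUT and the mean, against 489, 1043 and 465 with limma. Wild-type and NEO-IN share the numbers 1 to 3, but same-numbered libraries did not deviate together over all genes (correlations of 0.0742, -0.0225 and 0.0020). These 3 values give no sign of pairing by number, but they cannot show whether same-numbered libraries shared a batch. With the replicate block, a term for each label number, 9 ribosomal protein genes were called in NEO-IN, 7 higher and 2 lower. Wild-type has only the numbers 1 to 3, so this comparison rests on NEO-IN 1, 2 and 3, without the other NEO-IN embryos. NEO-IN 1, 2 and 3 all had a high Y-linked score, so in this fit strain and Y-linked score cannot be told apart. The 3 wild-type embryos, all with a low Y-linked score, limit every comparison with wild-type.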
